A study of Mus musculus with 6 samples.

Results

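A set of 10 genes that are widely used to mark astrocytes was followed by name through poly(A) RNA profiles of mouse brain, and all 10 were present among the 13170 genes of the deposited table. They are Slc1a2, Slc1a3, Glul, Gja1, Gjb6, Gfap, Aqp4, S100b, Aldoc and Aldh1l1. The series compared male C57 mice of a group with high sexual motivation (3 libraries, called high) with a group of low sexual motivation (3 libraries, called low). The labels give no treatment, no transgene and no age beyond adult, and they do not state how motivation was scored or whether a library came from 1 animal. The sampled region is not settled by the labels, since brain is given as the tissue, the title speaks of the medial amygdala and the RNA extraction is described for PrL tissue.

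Astrocytes take up glutamate and potassium after synaptic activity, turn glutamate into glutamine, and hold water channels on endfeet that wrap blood vessels and line the pial surface. They are coupled to each other through gap junctions built from connexins. Their marker genes differ between brain regions and between astrocytes at the surface and in the depth of the tissue, with Gfap known for its high level at the glia limitans and in white matter.

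Levels are FPKM, a unit that is scaled to transcript length and to library size but not to GC content, so levels can be compared between genes only roughly. Differences are log2(FPKM + 1) in the high group less that in the low group, from limma fitted to the 12026 genes whose mean over all libraries reached 1 FPKM, and they understate changes of low genes. All 10 markers passed this minimum. A gene was called at a Benjamini-Hochberg adjusted p under 0.05. The labels do not say that the libraries came from separate animals, so p-values measure the spread between these libraries, which may be technical. In bulk tissue, fewer astrocytes and less of a transcript per astrocyte cannot be told apart.

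Across libraries, the relative sequencing depth spanned 0.954 to 1.33, and the absolute depth is unknown. Low libraries 1 and 3 held choroid plexus transcripts, with summed levels of 1347 and 4192 FPKM over 13 markers, where the other 4 libraries had 42.2 to 112 FPKM. Most of these sums was Ttr, and the other 12 markers summed to 56.9 and 176 FPKM in those 2 libraries, against 8.77 to 9.88 FPKM in the other 4. The library deviations followed transcript GC content to different degrees, most in high library 2 (Spearman rho across genes 0.437) and in low library 2 (−0.490). The difference of the high less the low group also followed GC content across genes (Spearman rho 0.387), and transcript length (−0.225). The GC content of the longest transcript of the 10 markers ran between 41.4% for Aqp4 and 55.5% for Gfap, around a median of 50.2% over all tested genes.

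The 10 markers covered a wide range of levels. Glul stood first with a mean of 404.5 FPKM over the 6 libraries, followed by Aldoc at 283 FPKM and Slc1a2 at 136 FPKM, and the ranges of these 3 genes did not overlap with their neighbours in the order. Slc1a3 (68.9 FPKM) and S100b (63.2 FPKM) came next and overlapped with each other. Gfap averaged 40.1 FPKM, Gjb6 23.2 FPKM, Gja1 19.1 FPKM, Aqp4 13.4 FPKM and Aldh1l1 12.8 FPKM, and from Gfap downwards each gene overlapped with the next in the order. None of the 10 was at 0 in any library.

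All 10 are protein-coding genes on different parts of the genome (GENCODE, GRCm38). Glul lies on chromosome 1 from 153899944 to 153909723, Slc1a2 on chromosome 2 from 102658659 to 102790784, Aldh1l1 on chromosome 6 from 90486427 to 90600203 and Gja1 on chromosome 10 from 56377330 to 56402513. Aldoc lies on chromosome 11 from 78322968 to 78327781, Gfap on the same chromosome from 102887336 to 102900912, Slc1a3 on chromosome 15 from 8634124 to 8710764 and Aqp4 on chromosome 18 from 15389496 to 15410982. Gfap, Aqp4, Aldh1l1, Slc1a2 and Glul overlap an annotated gene on the opposite strand, as S100b does, which bears on their values if strand was not used in counting. Slc1a3, Aldh1l1 and Glul also overlap an annotated gene on their own strand, which the use of strand alone would not resolve.

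**Figure D1:**
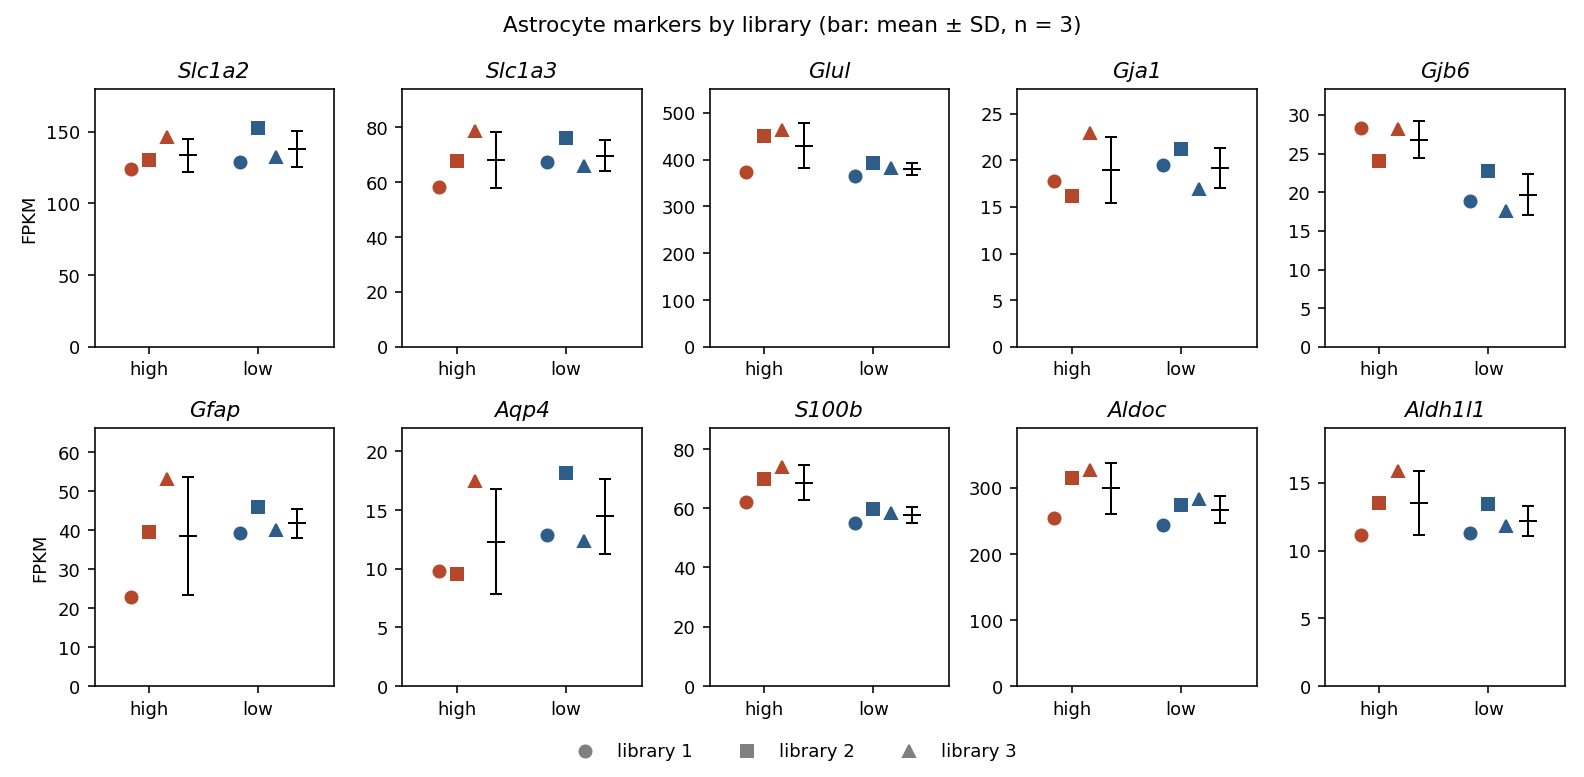
FPKM of each astrocyte marker in the 3 high and the 3 low libraries (points, shape by library number), with the mean ± SD of each group as a bar (n = 3). The groups overlap in 8 panels, and all high points lie above all low points for Gjb6 and S100b.

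Between the groups, 5 of the 10 markers had a positive and 5 a negative log2 difference, with a median of 0.05, beside a median of 0.00018 over all tested genes. Over all tested genes 50.1% had a positive difference. None of the markers was called by limma, and 0.00% of all tested genes were called (the lowest adjusted p was 0.363). Without adjustment, limma gave Gjb6 and S100b, or 2 of the 10 markers, a p under 0.05, where 8.39% of all tested genes reached that level and 4.12% did so in the same direction. These 2 genes were also the ones whose groups did not overlap, beside 14.9% of all tested genes, 7.33% of them in the same direction.

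Gjb6, which encodes connexin 30 and with it a part of the astrocytic gap junction channels, showed the largest difference of the 10. It had 28.3, 24.0 and 28.1 FPKM in the high libraries, against 18.8, 22.7 and 17.6 FPKM in the low libraries. Every high library lay above every low library, by the narrowest margin between high library 2 and low library 2. The means were 26.8 ± 2.41 FPKM in the high group, against 19.7 ± 2.67 FPKM in the low group (SD, n = 3 each), a ratio of 1.36. The log2 difference was 0.43 (SE 0.105, 95% interval 0.19 to 0.67), and its limma adjusted p over all genes was 0.505. The exact 2-sided permutation test of the means gave p = 0.1, the smallest that 3 against 3 can give. The authors' deposited table lists a log2 fold change of 0.444 and an unadjusted p of 0.0268 for this gene.

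Gja1 encodes connexin 43, the main astrocytic connexin, and its level did not follow that of Gjb6. It had 17.7, 16.2 and 23.0 FPKM in the high libraries, against 19.5, 21.2 and 16.9 FPKM in the low libraries. The highest library and the lowest library of all 6 were both in the high group. The log2 difference was −0.03 (SE 0.131, 95% interval −0.33 to 0.28; limma adjusted p = 0.964). The interval thus leaves room for a difference in either direction. It overlaps the interval of Gjb6, but both genes come from the same libraries, so this overlap does not show whether their differences are alike.

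The ratio of the 2 connexins separated the groups, as Gjb6 alone did, so it largely restates Gjb6 and is not a further result. Gja1 over Gjb6 was 0.628, 0.674 and 0.816 in the high libraries, against 1.03, 0.934 and 0.965 in the low libraries, so Gjb6 exceeded Gja1 in every high library and the pair stood near equality in the low libraries. The mean ratio was 0.706 ± 0.0982 over the high libraries, against 0.978 ± 0.0515 over the low libraries (SD, n = 3 each). Of the 45 ratios that the 10 markers form, 14 did not overlap between the groups, and 6 of these 14 involve Gjb6. The ratios share genes and are not independent, and of the ratios between any pair of tested genes 15.1% did not overlap. That share is not limited to pairs with a gene whose own groups were separate, as those of Gjb6 and S100b were.

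**Figure D2:**
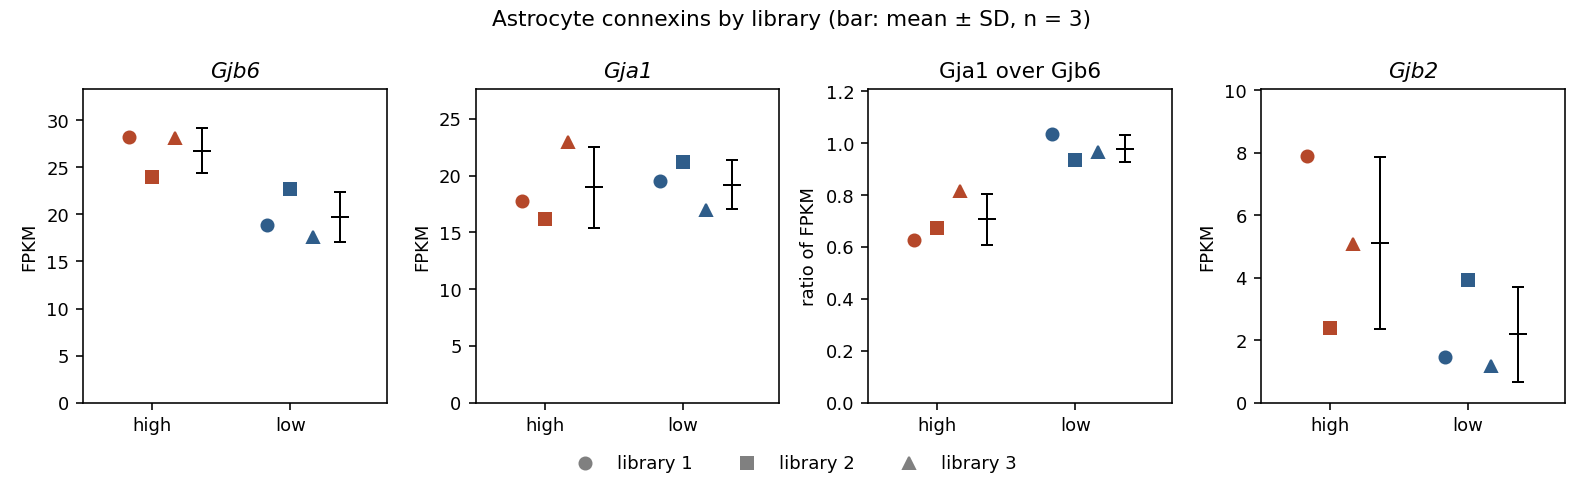
FPKM of Gjb6, Gja1 and Gjb2, and the ratio of Gja1 to Gjb6, in the 3 high and the 3 low libraries (points, shape by library number; bar, mean ± SD, n = 3). Gjb6 alone separates the groups, and the ratio restates this. The ratio lies between 0.628 and 0.816 in the high libraries and between 0.934 and 1.03 in the low libraries, while Gjb2 overlaps between the groups.

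Gjb6 lies on chromosome 14 from 57123303 to 57133611 on the minus strand of GRCm38, and Gjb2, the gene of connexin 26, lies 18600 bases away on the same strand. Gjb2, which is known from leptomeningeal cells as well as from some astrocytes, had 7.89, 2.38 and 5.06 FPKM in the high libraries, against 1.46, 3.94 and 1.16 FPKM in the low libraries (log2 difference 0.93, SE 0.395; limma adjusted p = 0.588). Its groups overlapped through high library 2 and low library 2. The summed level of 11 leptomeningeal markers was 1134, 211 and 613 FPKM in the high libraries, against 66.9, 356 and 82.8 FPKM in the low libraries. Ptgds, a prostaglandin synthase gene that oligodendrocytes also express, supplied 82.7% to 94.1% of this sum and is named for that, after its values were seen. The other 10 markers summed to 71.2, 14.3 and 36.2 FPKM in the high libraries, against 11.05, 24.1 and 14.3 FPKM in the low libraries. High libraries 1 and 3 had the highest values in Gjb6, in Gjb2 and in both sums. Low libraries 1 and 3 had the lowest values in Gjb6, in Gjb2 and in the full sum, while without Ptgds high library 2 lay level with low library 3. Of the 10 tested leptomeningeal markers, all 10 had a positive difference and 0 had separate groups, beside 50.1% and 14.9% of all tested genes. None was at 0 in a library. Some had a mean under 1 FPKM in the low libraries and passed the minimum through the high libraries, so this count is not support for a difference. The part of these markers in the difference of Gjb6 was not tested.

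S100b encodes a calcium-binding protein that astrocytes also secrete. It had 62.2, 70.0 and 73.9 FPKM in the high libraries, against 54.9, 59.9 and 58.5 FPKM in the low libraries. The groups were separate, with high library 1 closest to the low group. The means were 68.7 ± 5.94 FPKM in the high group, against 57.8 ± 2.60 FPKM in the low group (SD, n = 3 each), with a log2 difference of 0.24 (SE 0.0781, 95% interval 0.06 to 0.42; limma adjusted p = 0.557) and an exact permutation p of 0.1. The gene lies on chromosome 10 from 76253853 to 76261159 and overlaps Dip2a on the opposite strand. The labels do not say whether reads were assigned by strand, so reads of such a pair may not have been told apart. Dip2a had 13.8, 12.2 and 12.9 FPKM in the high libraries, against 12.6, 11.4 and 13.004 FPKM in the low libraries, a spread that overlapped between the groups.

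S100b is also expressed in mature oligodendrocytes, so their markers were set beside it. All 11 tested oligodendrocyte markers had a positive difference, at a median of 0.19, and the groups were separate in 5, with 0 calls, where 50.1% of all tested genes had a positive difference and 7.33% were separate in that direction. Their summed level was 459, 388 and 442 FPKM in the high libraries, against 353, 382 and 391 FPKM in the low libraries, and none was at 0. Their part in the difference of S100b was not tested.

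The promoters of the pair of markers with separate groups, and of Gja1 as the connexin whose groups overlapped, are printed to show what these windows do and do not share. Each is the 250 bases before the RefSeq start in GRCm38.p6, read 5′ to 3′ on the strand of the gene, and capitals mark the nuclear factor I core motif, TTGGC or its reverse complement GCCAA.
Gjb6 (chr14:57133612-57133861, minus strand): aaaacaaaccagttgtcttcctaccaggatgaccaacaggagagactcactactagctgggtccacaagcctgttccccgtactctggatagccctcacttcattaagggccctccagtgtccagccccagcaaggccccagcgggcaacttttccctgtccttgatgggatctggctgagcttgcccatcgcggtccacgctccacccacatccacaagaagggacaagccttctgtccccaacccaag
S100b (chr10:76253586-76253835, plus strand): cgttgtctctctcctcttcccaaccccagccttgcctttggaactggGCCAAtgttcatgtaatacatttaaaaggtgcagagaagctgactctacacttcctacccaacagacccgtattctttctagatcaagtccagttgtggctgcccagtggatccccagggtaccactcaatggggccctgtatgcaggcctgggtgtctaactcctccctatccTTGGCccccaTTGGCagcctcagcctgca
Gja1 (chr10:56377050-56377299, plus strand): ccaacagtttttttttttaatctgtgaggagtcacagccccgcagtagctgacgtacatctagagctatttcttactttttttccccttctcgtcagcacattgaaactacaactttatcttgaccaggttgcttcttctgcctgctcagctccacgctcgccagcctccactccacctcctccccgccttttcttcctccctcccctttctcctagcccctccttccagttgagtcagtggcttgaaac

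The S100b window held 3 core motifs and the windows of Gjb6 and Gja1 held 0. Over all 32851 promoter windows of this length, 41.5% held at least 1. The STAT motif TTCNNNGAA, searched on both strands, was in 0 of the 3 windows and in 7.02% of all windows. A match is a description of letters only, and no match says only that these letters are not in this window.

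The genes of the glutamate and glutamine cycle did not move as a group. Slc1a2, the glutamate transporter GLT-1 that carries most glutamate uptake in the forebrain, had 124, 130 and 146 FPKM in the high libraries, against 129, 152 and 133 FPKM in the low libraries. These ranges overlapped almost fully, with a log2 difference of −0.05 (SE 0.0918, 95% interval −0.26 to 0.17; limma adjusted p = 0.892). Slc1a3, the transporter GLAST, had 58.2, 67.7 and 78.5 FPKM in the high libraries, against 67.1, 76.0 and 65.8 FPKM in the low libraries (log2 difference −0.04, SE 0.112; limma adjusted p = 0.932). The low group lay within the range of the high group.

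Glul, the gene of glutamine synthetase, had 374, 449.7 and 464 FPKM in the high libraries, against 365, 392 and 382 FPKM in the low libraries. High libraries 2 and 3 lay above all low libraries, and high library 1 lay among them. The log2 difference was 0.17 (SE 0.0965, 95% interval −0.05 to 0.39; limma adjusted p = 0.638). The ratio of Slc1a2 to Glul was 0.331, 0.289 and 0.316 in the high libraries, against 0.352, 0.389 and 0.347 in the low libraries, and these values did not overlap. It is among the 14 of 45 marker ratios that did not overlap, beside 15.1% of the ratios between any pair of tested genes. It was picked from these ratios and is not a result about the cycle. The ratio of Slc1a2 to S100b did not overlap either, as the groups of S100b alone did not. The mean of this ratio was 1.95 ± 0.0741 over the high libraries, against 2.39 ± 0.143 over the low libraries (SD, n = 3 each).

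Gfap and Aqp4 varied most among the 10. Gfap, the intermediate filament of astrocytes, had 23.0, 39.5 and 53.1 FPKM in the high libraries, against 39.2, 46.1 and 40.0 FPKM in the low libraries. Both extremes of the 6 values lay in the high group, whose coefficient of variation was 39.1%, against 8.98% for the low libraries. The log2 difference was −0.19 (SE 0.254, 95% interval −0.77 to 0.40; limma adjusted p = 0.841), and without high library 1 it was 0.13. Aqp4, the water channel of the endfeet, had 9.82, 9.58 and 17.5 FPKM in the high libraries, against 12.9, 18.1 and 12.3 FPKM in the low libraries. High libraries 1 and 2 had the lowest values, and high library 3 lay next to low library 2 at the top. The log2 difference was −0.25 (SE 0.226, 95% interval −0.77 to 0.27; limma adjusted p = 0.758), and without high library 3 it was −0.51, with a limma adjusted p of 0.590. Aqp4 had the lowest transcript GC content of the 10, and with a trend on GC content and length removed its difference was −0.14.

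The metabolic enzymes Aldoc and Aldh1l1 had positive differences, as Glul did, with overlapping groups. Aldoc, the brain aldolase of glycolysis, had 254, 315 and 328 FPKM in the high libraries, against 244, 274 and 284 FPKM in the low libraries (log2 difference 0.16, SE 0.111; limma adjusted p = 0.699). Aldh1l1, a folate enzyme that serves as a general astrocyte marker, had 11.1, 13.5 and 15.8 FPKM in the high libraries, against 11.3, 13.4 and 11.8 FPKM in the low libraries (log2 difference 0.13, SE 0.122; limma adjusted p = 0.774). High library 1 lay among the low libraries for Aldoc and below them for Aldh1l1, while high library 3 lay above them in both.

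**Figure D3:**
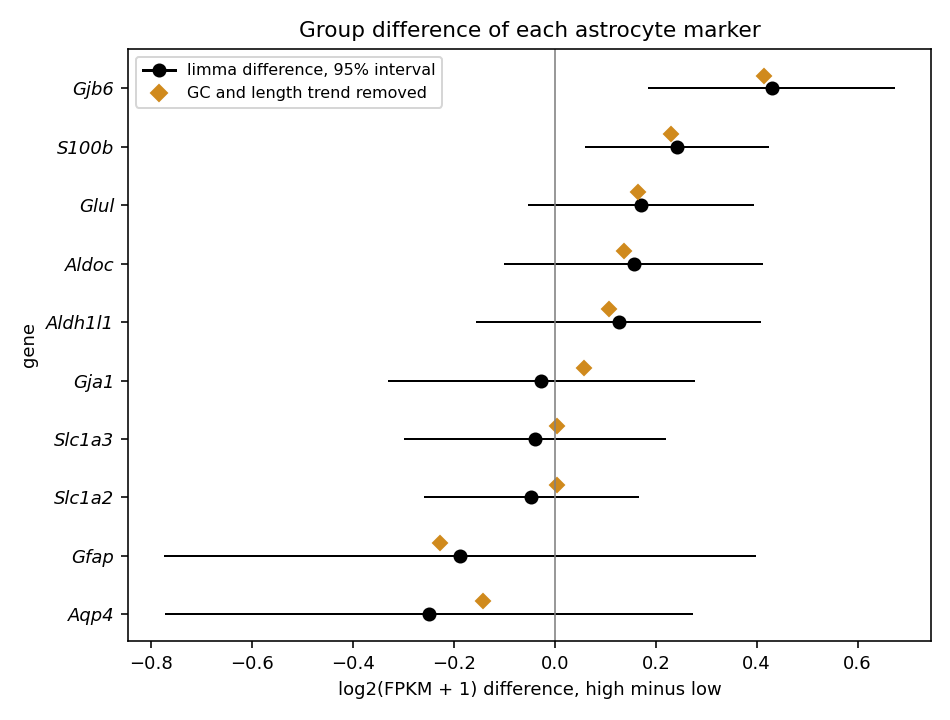
Difference of each astrocyte marker in log2(FPKM + 1), high minus low, from limma with its 95% interval (black), and the estimate after removal of a trend on GC content and length (diamonds). The intervals of Gjb6 and S100b lie above 0 before any adjustment for the number of genes, and those of the other 8 markers include 0.

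The markers also varied between libraries of the same group. High library 3 held the highest value for 7 of the 10 markers, and high library 1 held the lowest for 4. The median deviation from each gene's mean over the 6 libraries was −0.14, 0.04 and 0.25 on the log2 scale in the high libraries, against −0.11, 0.11 and −0.07 in the low libraries. The summed level of the 10 markers was 963, 1136 and 1228 FPKM in the high libraries, against 962, 1076 and 1021 FPKM in the low libraries. High library 1 and low library 1 were thus alike in this sum and high library 3 exceeded both. Glul supplied 36.5% to 39.6% of the sum. The other 9 markers summed to 589, 686 and 764 FPKM in the high libraries, against 597, 683 and 639 FPKM in the low libraries.

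The shape of the library profiles differed among markers. Profiles were standardised to unit SD over the 6 libraries and compared by their root mean square distance. Glul and Aldoc were closest, at 0.302, followed by Glul and S100b (0.322) and by Gfap and Slc1a3 (0.336). Gfap and Gjb6 were farthest apart, at 1.55, since Gjb6 was highest in high library 1, where Gfap was lowest. Among genes outside the list, Mtch2 (0.186), Dkc1 (0.188) and Cyp7b1 (0.199) lay nearest to the profile of Gfap, and Tst (0.138), Aida (0.152) and Zfp606 (0.159) nearest to that of Aqp4. These distances rest on 6 libraries and ignore how wide each gene varies: Mtch2 ran between 7.39 and 8.08 FPKM where Gfap ran between 23.0 and 53.1 FPKM.

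**Figure D4:**
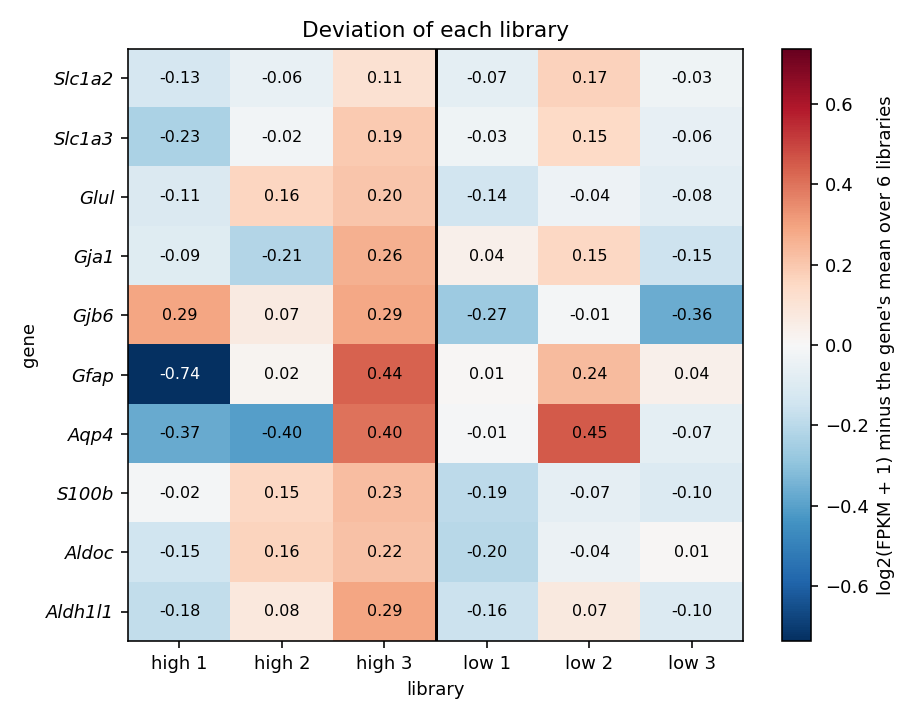
Deviation of log2(FPKM + 1) from the gene's mean over the 6 libraries for each astrocyte marker (rows) in the high libraries (left of the line) and the low libraries (right). High library 3 is above the mean for all 10 genes, and high library 1 is below it for 9, with Gjb6 as the exception.

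Further astrocyte genes were taken as lists. Of 41 tested astrocyte-enriched genes, 22 had a positive and 19 a negative difference, with a median of 0.01, 4 with separate groups, where 14.9% of all tested genes had them, and 0 calls. Itih3, a subunit of a secreted hyaluronan-binding inhibitor, had 15.2, 19.3 and 27.1 FPKM in the high libraries, against 13.9, 13.2 and 12.5 FPKM in the low libraries (log2 difference 0.57, SE 0.174; limma adjusted p = 0.553). Its groups were separate, as for Gjb6, and high library 1 lay closest to the low libraries. Slco1c1, a thyroid hormone transporter that brain endothelium and choroid plexus also express, had 7.87, 7.81 and 8.43 FPKM in the high libraries, against 9.60, 10.4 and 15.9 FPKM in the low libraries. Its groups were separate too, with the highest value in low library 3, the library with the highest choroid plexus sum. Ezr, which encodes the membrane linker ezrin, had its highest value there as well, at 36.2 FPKM, and its groups overlapped. In low library 2, with a choroid plexus sum of 82.8 FPKM, Slco1c1 was higher than in low library 1, with a sum of 1347 FPKM. The part of choroid plexus in Slco1c1 and Ezr was not tested.

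Transcription factors of the astrocyte lineage had 6 positive and 9 negative differences among 15 tested genes, with a median of −0.11, 2 with separate groups beside 14.9% of all tested genes, and 0 calls. Nfib, a nuclear factor I gene that neurons express as well, had 2.82, 3.45 and 2.93 FPKM in the high libraries, against 4.34, 3.85 and 4.53 FPKM in the low libraries (log2 difference −0.37, SE 0.0926; limma adjusted p = 0.505). Every high library lay below every low library, as in 7.61% of all tested genes. Its relative Nfix had 13.5 ± 0.976 FPKM in the high group, against 16.3 ± 1.87 FPKM in the low group (SD, n = 3 each), and high library 2 overlapped with the low group. Sox2, a factor of glia and neural stem cells, had 17.7 ± 2.22 FPKM in the high group, against 20.9 ± 3.25 FPKM in the low group. Hes5, a Notch target, had 5.46 ± 0.304 FPKM in the high group, against 4.82 ± 0.579 FPKM in the low group. With the GC and length trend removed the median of this list was −0.07.

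Genes that act with the markers were followed in the same way. In the list of glutamate and GABA uptake and recycling, 12 of 19 tested genes had a positive difference, with a median of 0.04 and 0 calls. The groups were separate in 2 of them (1 higher and 1 lower, beside 14.9% of all tested genes). Maob, the amine oxidase of astrocytes, had 8.54, 8.68 and 8.57 FPKM in the high libraries, against 9.21, 9.04 and 12.6 FPKM in the low libraries, with separate groups. Slc6a9, the glycine transporter GlyT1, was separate in the other direction, at 7.02 ± 0.549 FPKM in the high group, against 6.20 ± 0.349 FPKM in the low group. Grm5, a metabotropic glutamate receptor, had 8.09 ± 2.75 FPKM in the high group, against 10.8 ± 0.698 FPKM in the low group (SD, n = 3 each). Its values were 9.27, 4.95 and 10.05 FPKM in the high libraries, against 11.02, 11.4 and 10.02 FPKM in the low libraries. The groups of Grm5 overlapped, and its lowest value lay in high library 2. Slc38a2, a glutamine transporter, had 11.3 ± 2.81 FPKM in the high group, against 9.29 ± 0.654 FPKM in the low group.

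In the list of potassium and water handling and endfeet, 6 of 14 tested genes had a positive difference, with a median of −0.0045, 5 with separate groups (3 higher and 2 lower, beside 14.9% of all tested genes) and 0 calls. Clcn2, a chloride channel of glia, had 15.2, 15.7 and 16.02 FPKM in the high libraries, against 12.9, 12.6 and 14.3 FPKM in the low libraries (log2 difference 0.22, SE 0.0667; limma adjusted p = 0.553). Kcnk1, a potassium channel, had 19.4 ± 0.315 FPKM in the high group, against 22.6 ± 2.50 FPKM in the low group. Aqp1, the water channel of the choroid plexus, had 0.345 to 0.401 FPKM in the high libraries, against 4.81, 0.491 and 12.7 FPKM in low libraries 1, 2 and 3, in the order of their choroid plexus sums. It passed the minimum of 1 FPKM through low libraries 1 and 3. Slc12a2, an ion cotransporter that the choroid plexus also expresses, had 4.27 ± 1.17 FPKM in the high group, against 6.07 ± 1.61 FPKM in the low group. The part of choroid plexus in the difference of Slc12a2 was not tested.

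Other connexins and their partners had a positive difference in 8 of 10 tested genes, with a median of 0.12, 0 with separate groups and 0 calls. Over all tested genes, 50.1% had a positive difference and 14.9% had separate groups. Beside Gjb2, Gjb1, an oligodendrocyte connexin, had 2.63 ± 0.713 FPKM in the high group, against 1.60 ± 0.333 FPKM in the low group (log2 difference 0.47, SE 0.162; limma adjusted p = 0.572). Gja4, a connexin of arterial endothelium, had 2.04 ± 0.234 FPKM in the high group, against 1.39 ± 0.646 FPKM in the low group. Panx2, a pannexin of neurons and glia, had 27.9 ± 2.001 FPKM in the high group, against 24.7 ± 1.64 FPKM in the low group (SD, n = 3 each).

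Genes of aldolases, glycogen and lactate had a positive difference in 10 of 17 tested genes, with a median of 0.04 and 0 calls. The groups were separate in 3 (2 higher and 1 lower, beside 14.9% of all tested genes). Ugp2, which makes the precursor of glycogen, had 16.8 ± 2.73 FPKM in the high group, against 19.8 ± 0.982 FPKM in the low group. Pdk4, an inhibitor of pyruvate oxidation, had 2.44 ± 0.178 FPKM in the high group, against 2.92 ± 0.264 FPKM in the low group, with separate groups. Pfkfb3, a regulator of glycolysis, was separate in the other direction, at 4.98 ± 0.0334 FPKM in the high group, against 4.56 ± 0.112 FPKM in the low group (SD, n = 3 each). Folate enzymes related to Aldh1l1 had a positive difference in 4 of 10 tested genes, with a median of −0.04 and 0 calls. Mthfd2, Mthfd1l and Mthfd1 were among the genes with the smallest p in that list, and the lowest of their limma adjusted p-values was 0.699.

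Genes of intermediate filaments and reactive astrocytes gave no common direction. Of 26 listed genes 18 were in the table, and of 17 tested genes 11 had a positive difference, with a median of 0.11, 3 with separate groups beside 14.9% of all tested genes, and 0 calls. Aspg, an asparaginase, had 1.95, 1.09 and 1.51 FPKM in the high libraries, against 0.663, 1.03 and 0.856 FPKM in the low libraries (log2 difference 0.43, SE 0.148; limma adjusted p = 0.564). Its mean was under 1 FPKM in the low libraries, so it passed the minimum through the high libraries. Hspb1, a small heat shock protein that vessels also express, had 11.1 ± 2.61 FPKM in the high group, against 7.73 ± 1.78 FPKM in the low group, and Serping1, the C1 inhibitor, had 4.72 ± 2.74 FPKM in the high group, against 2.09 ± 1.26 FPKM in the low group (SD, n = 3 each). All 3 genes had their highest value in high library 1, the library with the highest leptomeningeal sum and the lowest Gfap. The part of leptomeningeal cells in these genes was not tested. Synm, an intermediate filament that assembles with vimentin, had 3.54 ± 0.476 FPKM in the high group, against 4.35 ± 0.667 FPKM in the low group.

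Relatives of S100b had a positive difference in 5 of 6 tested genes, with a median of 0.08, 0 with separate groups and 0 calls. Beside these counts, 50.1% of all tested genes had a positive difference and 14.9% had separate groups. S100a10, a partner of annexin A2, had 15.9 ± 2.29 FPKM in the high group, against 13.8 ± 0.598 FPKM in the low group. S100a13 had 12.9 ± 1.24 FPKM in the high group, against 11.2 ± 3.11 FPKM in the low group. S100a16 and S100a11 had limma adjusted p-values of 0.842 and 0.892.

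Secreted factors and phagocytic receptors by which astrocytes act on synapses went in both directions, with 6 positive and 6 negative differences among 12 tested genes, a median of −0.02, 5 with separate groups (2 higher and 3 lower, beside 14.9% of all tested genes) and 0 calls. Thbs4, a thrombospondin, had 0.128, 0.864 and 0.906 FPKM in the high libraries, against 3.24, 3.58 and 2.01 FPKM in the low libraries (log2 difference −1.29, SE 0.234; limma adjusted p = 0.471). It passed the minimum of 1 FPKM through the low libraries. Gpc4, a glypican that promotes excitatory synapses, had 3.04, 4.31 and 3.05 FPKM in the high libraries, against 5.64, 4.99 and 5.93 FPKM in the low libraries (log2 difference −0.56, SE 0.122; limma adjusted p = 0.496). Both genes are also expressed by neurons in some regions, and their groups were separate. In the other direction, Mertk, a receptor for the engulfment of synapses, had 10.829, 15.0 and 12.5 FPKM in the high libraries, against 9.16, 10.7 and 10.828 FPKM in the low libraries. High library 1 and low library 3 were thus almost equal, and Mertk counts as separate by that margin only. Sparc, a matrix protein that microglia and vessels also express, had 133, 148 and 203 FPKM in the high libraries, against 123, 131 and 121 FPKM in the low libraries, and its highest value lay in high library 3, as for 7 of the 10 markers.

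Other cell types were followed by their own markers beside these results, and their counts of separate groups stand beside 14.9% of all tested genes, 7.33% higher and 7.61% lower. Ependymal cells, which also express S100b, Gfap and Aqp4, gave 9 of 9 tested markers with a negative difference and 8 with separate groups, all lower. Some of these markers had a mean under 1 FPKM in the high libraries and passed the minimum through the low libraries. These counts are thus not support for a difference. The ependymal markers had summed levels of 13.03 to 16.1 FPKM in the high libraries, against 23.8 to 47.2 FPKM in the low libraries. Endothelial and mural markers had summed levels of 135 to 209 FPKM in the high libraries, against 129 to 150 FPKM in the low libraries, with 11 of 14 differences positive and 2 with separate groups. Microglia markers had 187 to 197 FPKM in the high libraries, against 174 to 195 FPKM in the low libraries, with 6 of 13 differences positive and 4 with separate groups. Neuron markers had 1852 to 2072 FPKM in the high libraries, against 1767 to 1868 FPKM in the low libraries, with 10 of 14 differences positive and 3 with separate groups. Oligodendrocyte precursor markers had 94.8 to 104 FPKM in the high libraries, against 95.5 to 100.3 FPKM in the low libraries, with 3 of 9 differences positive and 0 with separate groups. No listed marker in the table was at 0, and 0 were called. The part of these cell types in the astrocyte markers was not tested.

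**Figure D5:**
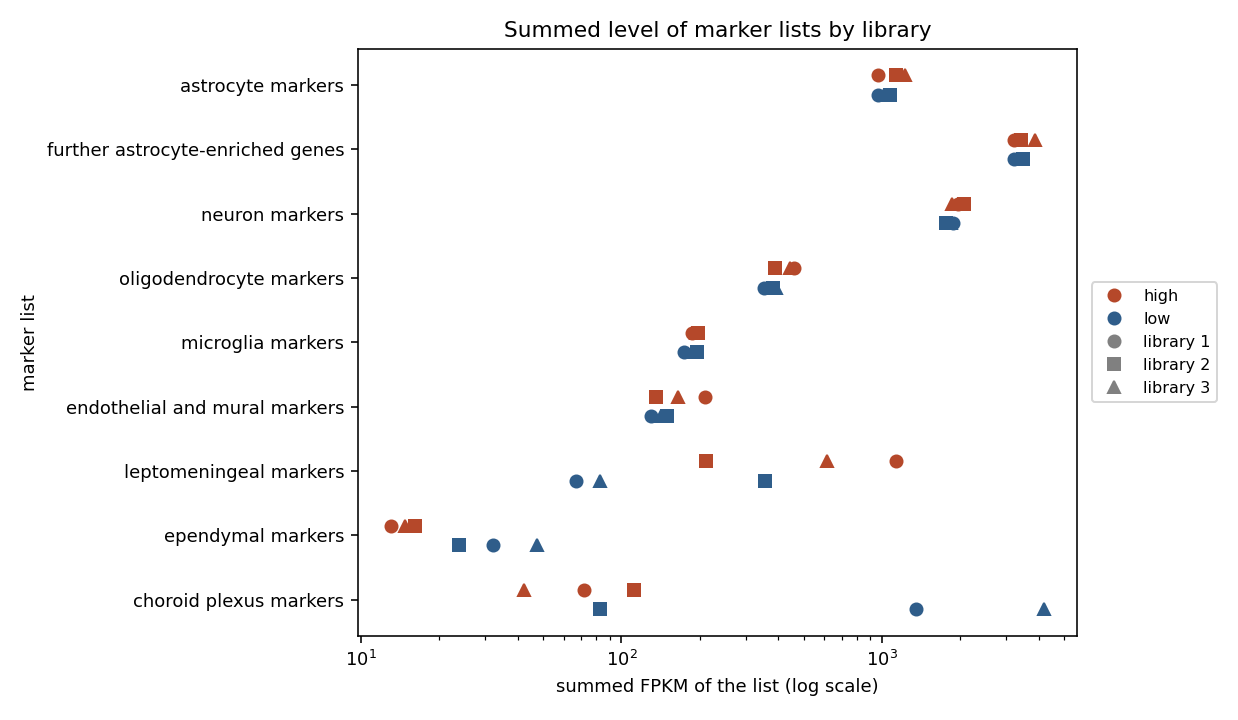
Summed FPKM of marker lists, on a log scale, in the 3 high libraries (upper points of each row) and the 3 low libraries (lower points), with shape by library number. The astrocyte markers span 962 to 1228 FPKM over all 6 libraries, with 36.5% to 39.6% of the sum from Glul. The leptomeningeal sum, mostly Ptgds, spans 66.9 to 1134 FPKM and the choroid plexus sum 42.2 to 4192 FPKM.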

How the data were processed

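Poly(A) RNA was selected from TRIzol extracts and fragmented, and the dUTP second strand was removed, per the labels' protocols. The tools fastp, HISAT2 and StringTie and the build GRCm38 are named, without versions, per the submitters' processing notes. The authors deposited FPKM per gene and library, a log2 fold change of the group means, and an unadjusted p-value whose test the labels do not name. FPKM carry no counts, so no count model was fitted. Relative depth was taken from the most common exact ratio between libraries among 1428 genes under 1.5 FPKM.

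FPKM were analysed as log2(FPKM + 1) in R 4.3.3 by limma 3.58.1, using a variance trend, 2-sided tests and Benjamini-Hochberg adjustment over 12026 genes, and the fit was tested on simulated data. Exact permutation tests, summaries and plots used Python 3.11.15 (scipy 1.17.1, numpy 2.4.6, matplotlib 3.10.9, pandas 2.3.3). Transcript GC content and length came from the longest transcript in GENCODE for GRCm38 and covered 99.2% of tested genes. Promoter windows came from RefSeq, GRCm38.p6. The members, gene lists and alternatives were chosen with earlier results of these data known. Beside the 10 markers, the text names up to 4 genes of each list with the smallest p, and the 3 nearest profiles of Gfap and of Aqp4. Some genes that this rule selects are not reported here, though list counts include them. Gjb2 passes by that rule too. For choroid plexus, ependymal, leptomeningeal, vascular, microglial, neuronal and oligodendrocyte lists only counts and sums are given, apart from Ptgds and Ttr, named after their values were seen. S100a10 and Aqp1 stand in 2 lists each.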

Additional observations from a re-analysis of the deposited data

How the results depend on the processing

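Under 21 alternatives (other pseudocounts, filters, scalings, variance models, array weights, removal of a GC and length trend with 5 spline degrees of freedom, the replicate block, low libraries 1 and 3 left out, and each library left out in turn), limma called 0 genes each time. The median difference of the 10 astrocyte markers lay between −0.09 and 0.19, and was negative only without high library 3 (−0.05) and with low libraries 1 and 3 left out (−0.09), each shift being smaller than the spread between replicates. Gjb6 (0.23 to 0.53), S100b (0.19 to 0.31), Glul, Aldoc and Aqp4 kept their sign under all 21, and the limma adjusted p of Gjb6 ran from 0.153 with array weights to 0.979 with low libraries 1 and 3 left out.

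With the GC and length trend removed, with or without the replicate block, Slc1a2 turned to 0.0051, Slc1a3 to 0.0044 and Gja1 to 0.058. With low libraries 1 and 3 left out, Aldh1l1 was at −0.0076. Leaving out 1 library at a time, Gfap ranged from −0.45 to 0.13, Slc1a2 from −0.115 to 0.027, Slc1a3 from −0.145 to 0.068 and Gja1 from −0.165 to 0.074. Slc1a2, Slc1a3 and Gja1 turned positive without high library 1 or low library 2, Gja1 also without high library 2, and Gfap without high library 1. These differences near 0 have no settled direction, and the cause was not tested. Same-numbered libraries did not deviate together (correlations −0.0939, −0.206 and −0.156). With 3 libraries a group, these correlations cannot settle whether the numbers mark pairs, and the numbers are used here as names only. With the replicate block 0 genes were called and the limma adjusted p of Gjb6 and of S100b was 0.757. Absolute depth is unknown, so counting error cannot be given. With 3 libraries a group and a median standard error of 0.09, small differences were not detectable.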
